A study of Homo sapiens with 3 samples.

Results

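The mitochondrial ribosomal protein genes were taken as every gene whose symbol is MRPL followed by a number, or MRPS followed by a number and, in some cases, the letter A, B or C. The arrays held 75 such genes among 18639 genes with a named probe, read by 85 probes. Of the 75, 48 carried an MRPL symbol, given to proteins of the large subunit, and 27 an MRPS symbol, given to those of the small subunit. The rule used symbols only and no measured value. It does not reach 5 subunits that carry other symbols, and 4 of these had a probe and are described beside the members. MRPL38, MRPS24 and MRPS36 had no named probe and were not analysed here. The symbol is not always a guide to the subunit, since structures of the mitochondrial ribosome place MRPS30 and MRPS18A in the large subunit.

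The cells were HT29, an established human colorectal cancer line, for which the labels give no genetic change. One culture group received the solvent DMSO alone, another a derivative of linderapyrone at 5 µM and the last the same derivative at 20 µM, each for 24 h. Each group had 1 array, 3 arrays in all, so the spread between cultures was not measured, no test was possible and every difference here is a description of these 3 arrays. Doses are in µM, as in the treatment labels, although the sample titles have mM. Both comparisons with DMSO share the same DMSO array.

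Mitochondria keep their own ribosomes, which translate the few respiratory chain and ATP synthase subunits encoded by mitochondrial DNA. The ribosomal RNAs come from the mitochondrial genome, while all of the ribosomal proteins are encoded in the nucleus, made in the cytosol and imported. Some of these proteins descend from bacterial ribosomal proteins and others are found only in mitochondrial ribosomes. Loss of mitochondrial translation impairs respiration, since most complexes of the chain need subunits of both origins.

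Promoter sequences of some members at both ends of the response are printed to show the letters that a search of the members' promoters looked for. They are RefSeq sequences on GRCh38.p14, written 5′ to 3′ on the strand of the gene. Capitals mark the letters CCGGAAGT of ETS factors such as GABPA, read on the other strand as ACTTCCGG, the letters CGCATGCG of NRF1, or the letters AAGATGGCG of YY1. ETS factors, NRF1 and YY1 are regulators known to bind promoters of nuclear genes for mitochondrial proteins.
MRPL16, chr11:59810769-59810888, minus strand: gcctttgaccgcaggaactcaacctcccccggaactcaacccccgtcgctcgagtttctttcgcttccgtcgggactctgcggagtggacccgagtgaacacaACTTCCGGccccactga
MRPS34, chr16:1773135-1773254, minus strand: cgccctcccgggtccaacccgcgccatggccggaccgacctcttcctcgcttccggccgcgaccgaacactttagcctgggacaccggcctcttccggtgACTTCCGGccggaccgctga
MRPL51, chr12:6493273-6493392, minus strand: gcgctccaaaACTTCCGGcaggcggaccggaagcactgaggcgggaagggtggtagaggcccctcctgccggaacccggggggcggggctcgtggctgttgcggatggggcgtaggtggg
MRPL17, chr11:6683341-6683460, minus strand: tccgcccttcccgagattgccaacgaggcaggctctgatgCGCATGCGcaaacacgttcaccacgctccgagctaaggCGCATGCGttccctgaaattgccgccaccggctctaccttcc
MRPL42, chr12:93467514-93467538, plus strand: attgaaacAAGATGGCGggttcgtg
MRPS30, chr5:44808952-44808976, plus strand: cgcgggcaAAGATGGCGgcggccag
The first 3 genes were among the 4 lowest of all members at 20 µM, and the last 2 were the highest. MRPL23, also among the 4 lowest, is not shown, as no match was found for it. The YY1 letters were also found in MRPS18B and MRPL46, which were lower at 20 µM. The ETS letters were also found in MRPS22, which was slightly higher. MRPL17 is shown for its 2 NRF1 matches.

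All 85 member probes exceeded the detection threshold on all 3 arrays. That threshold, the trimmed mean plus 2 SD of 480 blank and negative control spots, lay at spot signals of 82.5, 79.4 and 80.2 on the DMSO, 5 µM and 20 µM arrays, the order used for all signals here. The median spot signal of the 75 members was 891, 637 and 647, while that of all genes was 126, 114 and 118. The DMSO array was thus the brightest before normalization, and spot signals as deposited are not comparable between arrays. At least 10 times the threshold was reached by 41, 29 and 24 members. The dimmest was MRPL22, a protein of the exit tunnel, with signals of 84.3, 81.6 and 82.9, so close to the threshold that its ratio carries little. Of 12 colon epithelium markers with a probe, 12 were above threshold on each array, and 8 were at least 2 times above it, with the keratin KRT18 at up to 56135. The colon markers CDX1, CDX2, CDH17 and CEACAM5 were under 2 times the threshold on each array. Above the threshold itself were also 2 of 3 blood, 4 of 6 fibroblast and 3 of 4 endothelium markers on each array. Of these 13 markers, only 1, DCN, reached 2 times the threshold, at 231 in DMSO and 211 at 20 µM.

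At 20 µM, most mitochondrial ribosomal protein genes had lower values than in DMSO, by small amounts. Ratios are given as log2 of the normalized values, so that −1 is a 2-fold lower value. Their median was −0.19, against 0.0071 over the 16062 genes detected on both arrays. Below 0 lay 55 of the 75 members, or 73.3%, beside 47.1% of all genes. At least 1.3-fold lower were 12 members, or 16%, beside 5.45% of all genes, and at least 1.3-fold higher were 2 members, or 2.67%, beside 4.63%. No member differed by 2-fold in any of the 3 comparisons. The members are brighter than most genes, and a set of genes at least 2 times above threshold on both arrays, a comparison chosen after the data were seen, is the nearer background. In it, 10.0% of 6753 genes were at least 1.3-fold lower at 20 µM, with 12 of the 71 members it held.

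**Figure D1:**
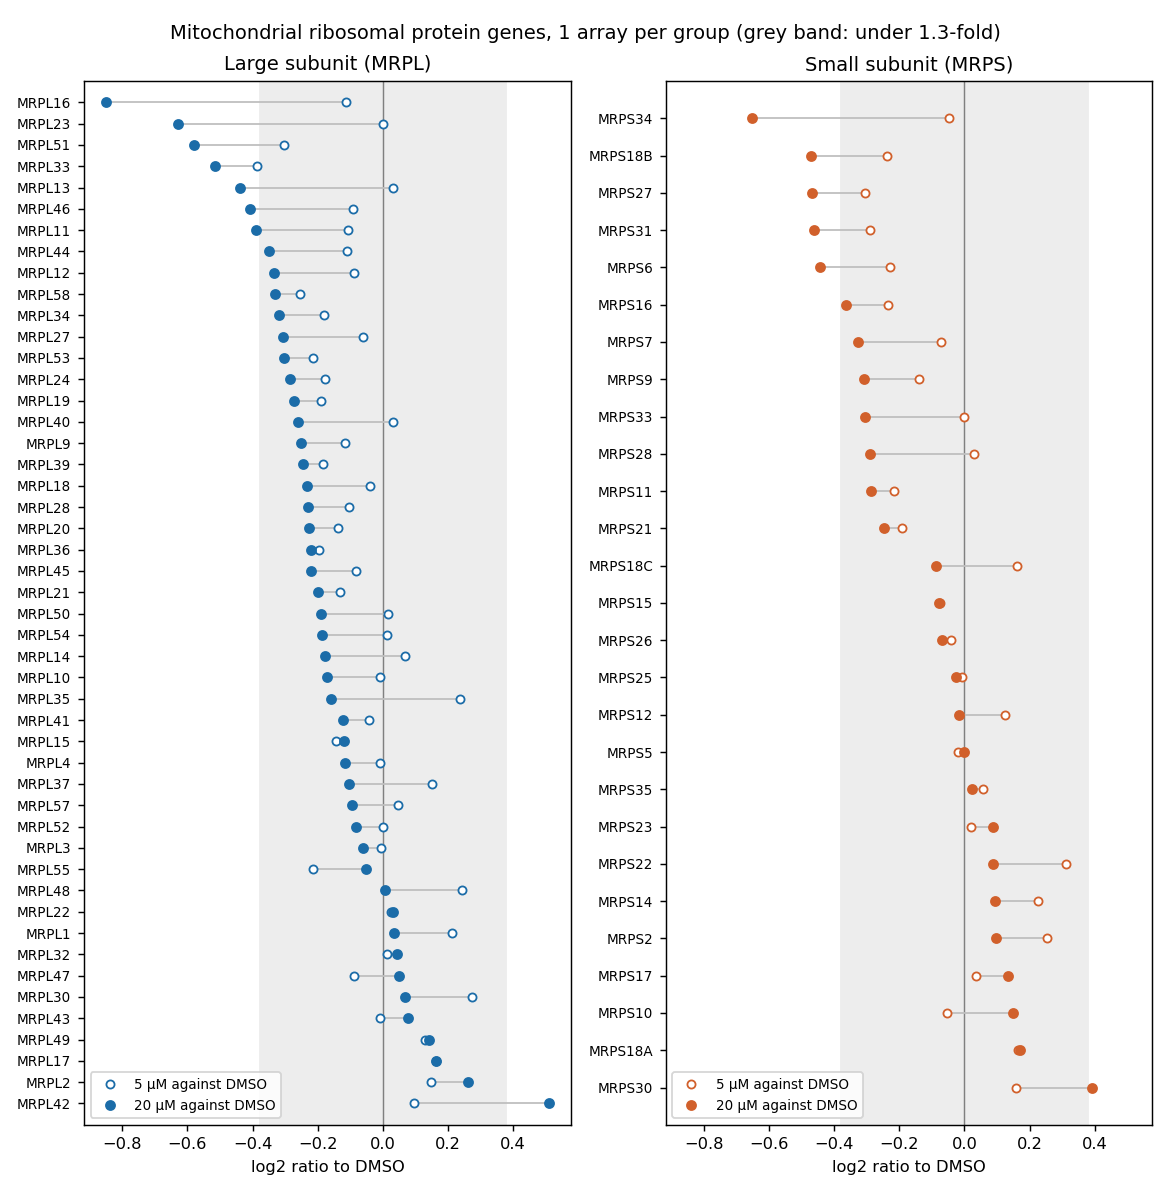
Log2 ratios of the 75 members, 1 point per gene and dose against DMSO, ordered by the ratio at 20 µM, with 1 array per group and no error bar possible. At 20 µM the ratios ran from −0.85 (MRPL16) to 0.51 (MRPL42) with 55 below 0, and at 5 µM from −0.39 (MRPL33) to 0.31 (MRPS22) with 47 below 0.

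The only measure of error in these arrays is technical. The scatter of 1 log2 ratio, taken from the 1983 genes that 2 detected probes read, had an SD of 0.15 for the 20 µM array and 0.11 for the 5 µM array, each against DMSO, and 0.12 between the treated arrays. A 1.3-fold difference is 2.59, 3.40 and 3.26 of these SDs. This SD holds differences between probes on the same arrays and nothing of the spread between cultures, labelling reactions or hybridisations.

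MRPL16 had the lowest ratio of all members. It belongs to the core of the large subunit, near the sites where transfer RNAs bind. Its spot signals were 1146, 842 and 576, high in DMSO and lowest at the higher dose. After quantile normalization it was 1.80-fold lower at 20 µM than in DMSO (−0.85), but near it at 5 µM (−0.11). In the authors' value table it stood at 505, 444 and 265, a log2 ratio of −0.93 at 20 µM.

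MRPS34 and MRPL23 were the other members at least 1.5-fold lower at 20 µM. MRPS34 is a small-subunit protein found only in mitochondrial ribosomes and needed for the stability of that subunit. Its signals were 1117, 853 and 642, with a ratio of −0.65 at 20 µM and −0.048 at 5 µM. MRPL23, a large-subunit protein near the opening of the exit tunnel, had signals of 1529, 1173 and 864 in the same order. Its ratio was −0.63 at 20 µM and −0.00024 at 5 µM. With these probes, as in MRPL16, the 20 µM array was low and the 5 µM array stood near DMSO after quantile normalization. A second probe was available for both genes. For MRPL23 it read −0.58 at 20 µM and −0.041 at 5 µM. For MRPS34 it read −0.65 at 20 µM but −0.24 at 5 µM, so the place of MRPS34 at 5 µM differs between its probes. With the deposited local background, which rose with a spot's own signal, used in the correction, MRPL23 stood at 1.77, so its direction depends on leaving that column aside.

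With quantile normalization, another group of members was already lower at 5 µM. With median scaling the median of all members at 5 µM was −0.25, against −0.039 with quantile normalization. Which members stood near DMSO at 5 µM therefore depended on the scaling. MRPL51, a large-subunit protein without a bacterial counterpart, had signals of 1326, 847 and 785 and ratios of −0.30 at 5 µM and −0.58 at 20 µM. MRPL33, whose bacterial relative lies at the exit site for transfer RNA, had signals of 1022, 629 and 643 and ratios of −0.39 and −0.52. These 2 large-subunit genes were lower at both doses. MRPS27, a small-subunit protein of the pentatricopeptide repeat family, had signals of 537, 353 and 348 and ratios of −0.31 and −0.47. MRPS31, a small-subunit protein found only in mitochondria, had signals of 858, 562 and 555 and ratios of −0.29 and −0.46. At 20 against 5 µM, MRPL51, MRPL33, MRPS27 and MRPS31 stood at −0.28, −0.13, −0.16 and −0.17.

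The remaining members at least 1.3-fold lower at 20 µM were MRPS18B, MRPS6, MRPL13, MRPL46 and MRPL11. Their ratios ran from −0.47 to −0.39. MRPL13, a core protein of the large subunit, had signals of 1802, 1399 and 1155 and a ratio of 0.030 at 5 µM. With quantile normalization it thus followed the pattern of MRPL16 and not that of MRPL33. With the local background used, MRPL13 stood at 0.76 and MRPS18B at 1.94 at 20 µM, the opposite direction. MRPS6, a core small-subunit protein, had signals of 905, 621 and 596 and a ratio of −0.44 at 20 µM, but its second probe gave −0.23, less than 1.3-fold.

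Against this, 2 members were at least 1.3-fold higher at 20 µM. MRPL42 is a protein of the large subunit found only in mitochondrial ribosomes. Its signals were 1043, 876 and 1294, highest at 20 µM although that array was dimmer than the DMSO array, and the ratio was 0.51, a 1.42-fold higher value. MRPS30, which the structures place in the large subunit despite its symbol, had signals of 1024, 902 and 1174 and a ratio of 0.39, or 1.31-fold higher. Both had 1 probe, and at 5 µM both were nearer to DMSO, at 0.096 for MRPL42 and 0.16 for MRPS30. With median or 75th percentile scaling in place of quantile normalization, 1 member and not 2 was at least 1.3-fold higher, beside 3.26% and 4.89% of all genes. With the local background used, MRPS30 stood at −0.29.

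The next highest ratios at 20 µM were small. MRPL2, a core protein close to the catalytic centre, had signals of 367, 333 and 391 and a ratio of 0.26, while its other probe gave 0.093. MRPS18A had a ratio of 0.17 and 0.075 from its other probe. MRPL17 (2751, 2368 and 2696), MRPS10 (607, 472 and 593), MRPL49 (529, 462 and 511) and MRPS17 (962, 784 and 934) had ratios of 0.16, 0.15, 0.14 and 0.13. All 4 were within 2 of the technical SDs of 0.

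**Figure D2:**
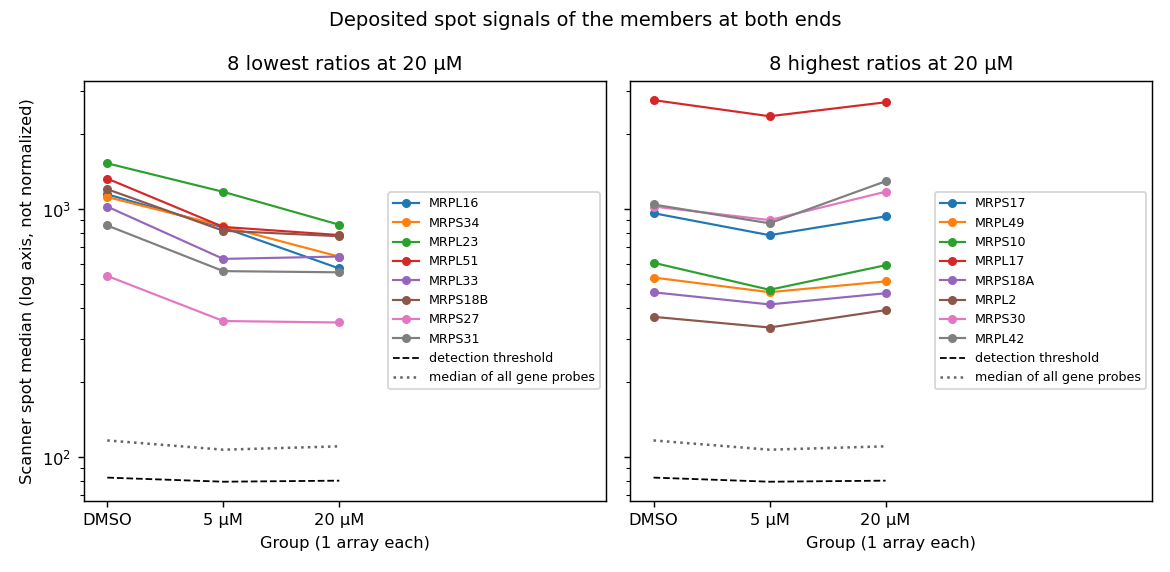
Deposited spot signals on a log axis for the 8 members with the lowest (left) and the 8 with the highest (right) ratios at 20 µM, 1 point per array, not normalized, with the detection threshold and the median of all gene probes as lines. MRPL16 went from 1146 in DMSO to 576 at 20 µM, whereas MRPL42 stood at 1043 and 1294.

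The large and the small subunit had overlapping ranges. For the 48 MRPL genes the median ratio at 20 µM was −0.19, with 37 (77.1%) below 0, 7 (14.6%) at least 1.3-fold lower and 1 (2.08%) higher. For the 27 MRPS genes it was −0.077, with 18 (66.7%) below 0, 5 (18.5%) lower and 1 (3.70%) higher. Of all genes, 47.1% were below 0, 5.45% at least 1.3-fold lower and 4.63% higher. The ratios of the MRPS genes left a gap: MRPS21 stood at −0.25, the next was MRPS18C at −0.088, and no MRPS gene lay between them. Their median, the ratio of MRPS15, lay just above this gap. The quartiles were −0.32 and 0.088 for the small subunit and −0.30 and −0.059 for the large one. With MRPS30 and MRPS18A counted in the large subunit, the medians at 20 µM were −0.19 for the large and −0.088 for the small subunit, and those at 5 µM −0.025 and −0.042.

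The members were also divided by the origin of the protein. The 47 members listed as having a counterpart in bacterial ribosomes had a median of −0.20 at 20 µM, with 7 (14.9%) at least 1.3-fold lower and 0 higher. The list was not checked against sequences, and the place of MRPL55 (−0.051 at 20 µM) in this class is doubtful. The 28 members listed as found only in mitochondrial ribosomes had a median of −0.16, with 5 (17.9%) lower and 2 (7.14%) higher. Of all genes, 5.45% were lower and 4.63% higher. The highest members, MRPL42 and MRPS30, belong to the second class. Of the 4 lowest, MRPL16 and MRPL23 belong to the first class and MRPS34 and MRPL51 to the second.

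The stalk of the large subunit, which recruits translation factors, is built from MRPL10, MRPL11 and MRPL12. Their ratios at 20 µM were −0.17, −0.39 and −0.34. MRPL11 had signals of 973, 722 and 662, and MRPL12, which is also known to bind the mitochondrial RNA polymerase, 690, 522 and 490. MRPL10 had signals of 758, 600 and 596. All 3 were below 0, and at 5 µM they stood at −0.0082, −0.11 and −0.089 for MRPL10, MRPL11 and MRPL12.

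Some further members, chosen after their values were seen and not a full list of any region, are given by their place in the ribosome. MRPL24, which borders the exit tunnel through which new chains leave, had signals of 866, 617 and 640 and ratios of −0.18 at 5 µM and −0.28 at 20 µM. MRPL45, which ties the ribosome to the inner membrane, had signals of 2296, 1664 and 1710 and ratios of −0.083 and −0.22. MRPL47, also near the tunnel, had signals of 297, 235 and 278 and ratios of −0.088 and 0.051.

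Among members with the folds of enzymes, not a full list, were MRPL58, a peptidyl-tRNA hydrolase built into the large subunit, and MRPL44, which has a ribonuclease fold. MRPL58 had signals of 1053, 705 and 743 and ratios of −0.25 at 5 µM and −0.33 at 20 µM. MRPL44 had signals of 536, 400 and 378 and ratios of −0.11 and −0.35. Both were lower at both doses, but neither by 1.3-fold. At the decoding centre of the small subunit, MRPS12 had signals of 2665, 2246 and 2309 and stood at 0.12 and −0.015. MRPS7 and MRPS9, which belong to the head of the small subunit, stood at −0.33 and −0.31 at 20 µM, with signals of 955, 728 and 677 for MRPS7 and 517, 377 and 373 for MRPS9. MRPS14, another protein of the head, had signals of 684, 637 and 649 and stood at 0.093.

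The 3 paralogs of the MRPS18 family had ratios of different sign. MRPS18B had signals of 1202, 817 and 777 and ratios of −0.24 at 5 µM and −0.47 at 20 µM. MRPS18C had signals of 1152, 1023 and 974 and ratios of 0.16 and −0.088, and MRPS18A had signals of 461, 412 and 457 and ratios of 0.16 and 0.17. MRPS18B was thus below DMSO at both doses, and MRPS18A above it at both. Each occupies its own position in the ribosome. Cross-hybridisation between paralogs was not tested.

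At 5 µM the members stood close to DMSO. Their median ratio was −0.039, against 0.0043 over 16075 genes. Below 0 were 47 of 75 (62.7%), beside 47.9% of all genes. At least 1.3-fold lower was 1 member, MRPL33, or 1.33%, beside 0.952%, a share near the background, and at least 1.3-fold higher were 0 members, beside 1.18%. The median was −0.041 for the large and −0.021 for the small subunit. These values depended on the scaling. With median scaling the members' median at 5 µM was −0.25 and 17 were at least 1.3-fold lower, where 6.16% of all genes were. Under that scaling, the genes at least 2 times above threshold had themselves a median of −0.17, and the members lay 0.079 under it (a difference of −0.079), as against −0.048 with quantile normalization.

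The highest members at 5 µM were MRPS22, MRPL30, MRPS2 and MRPL48. MRPS22, a small-subunit protein found only in mitochondria, had signals of 591, 579 and 554 and a ratio of 0.31. MRPL30 had signals of 525, 505 and 485 and a ratio of 0.27, but its other probe gave −0.072, so the direction rests on the probe. MRPS2 (498, 474 and 469) and MRPL48 (1466, 1329 and 1280) had ratios of 0.25 and 0.24. At 20 µM these 4 genes lay between 0.0069 for MRPL48 and 0.096 for MRPS2.

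The arrays at 20 and 5 µM can also be set against each other, although all 3 arrays, DMSO included, were normalized together. The members' median was −0.13 at 20 against 5 µM, the same to 2 decimals in the large and the small subunit, against −0.0011 over 16036 genes. Below 0 were 59 of 75 (78.7%), beside 50.4% of all genes. At least 1.3-fold lower were 5 members (6.67%), beside 2.79%, and higher was 1 (1.33%), beside 2.79%. Among genes at least 2 times above threshold, 5.54% were at least 1.3-fold lower, so the members' share of lower genes was near that of bright genes. The 5 were MRPL16 at −0.74, MRPL23 at −0.63, MRPS34 at −0.60, MRPL13 at −0.47 and MRPL35 at −0.39. MRPL35, a core large-subunit protein, had signals of 342, 329 and 279. It stood at 0.24 for 5 µM and −0.16 for 20 µM against DMSO. On the higher side, MRPL42 stood at 0.41, MRPS30 at 0.23, MRPS10 at 0.20 and MRPL55 at 0.16. These values depended on the scaling. With median scaling the members' median was −0.025, and 44 of 75 were below 0, beside 49.3% of all genes. The count of members at least 1.3-fold lower was then 3, beside 1.75% of all genes. With 75th percentile scaling the members' median was −0.076, where that of all genes was −0.049.

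For 10 members a second probe gave a reading on the same arrays. The probes had the same sign in 9 of 10 genes for the 20 µM array against DMSO, in 6 of 10 for the 5 µM array and in 7 of 10 between the treated arrays. The exception at 20 µM was MRPL30, at 0.069 and −0.19. At 5 µM the probes also parted for MRPL27 (−0.060 and 0.015), MRPS5 (−0.021 and 0.091) and MRPS35 (0.058 and −0.057). MRPL27 and MRPS5 are core proteins of their subunits, and MRPS35 is found only in mitochondria. Between the treated arrays they parted for MRPS5 (0.018 and −0.19), MRPS35 (−0.035 and 0.14) and MRPS18A (0.0064 and −0.065). At 20 µM the SD of a single ratio among these members was 0.095. Ratios at 5 µM were of the size of the difference between probes, and signs of single members there are not supported by their second probe in 4 of 10 cases.

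**Figure D3:**
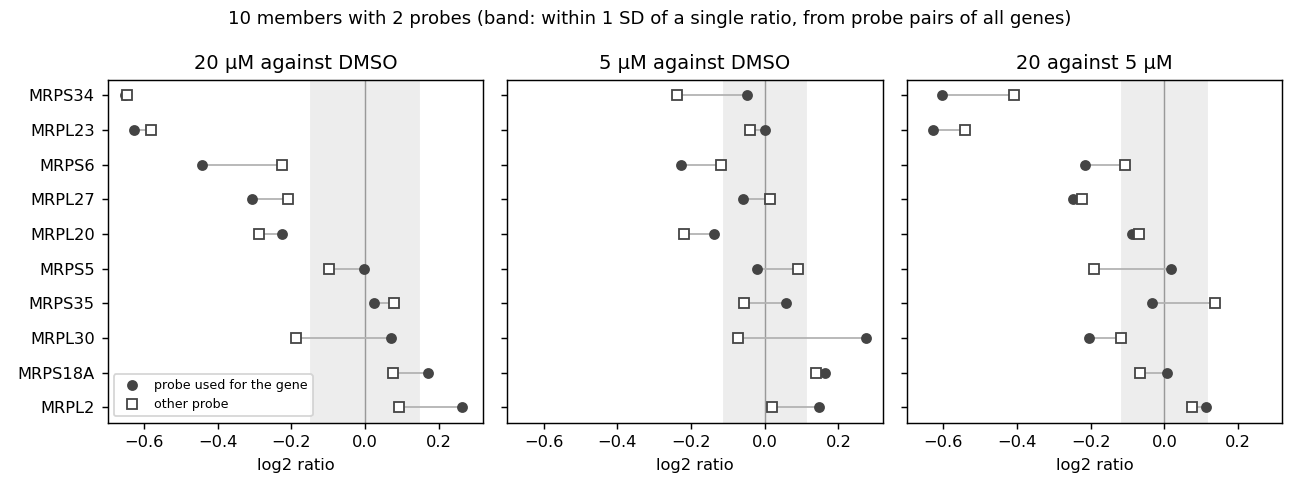
Log2 ratios of the 10 members with 2 probes, in 3 panels, 1 for each dose against DMSO and 1 for 20 against 5 µM; filled circles are the probe used for the gene, open squares the other probe, and the band is within 1 SD of a single ratio. The signs matched in 9, 6 and 7 of 10 genes, and MRPS34 and MRPL23 were low with both probes at 20 µM.

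The ribosomal subunits with other symbols stood between the members. GADD45GIP1, a large-subunit protein, was at −0.29 at 20 µM, and CHCHD1, a small-subunit protein, at −0.11, with 0.29 at 5 µM. DAP3, which binds GTP in the small subunit, was at 0.0098 and PTCD3 at 0.033. With these 4 added to the 75, the median at 20 µM was −0.18.

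Other genes that the ribosome works with were placed on the same scale, each list chosen by function and described by its counts. Nuclear genes for respiratory chain and ATP synthase subunits had a median of −0.28 at 20 µM and −0.10 at 5 µM. Most are partners of the products of mitochondrial translation. The list also held SDHA, SDHC and SDHD of complex II, which has no such partner, and the inhibitor ATP5IF1. Of the 79 genes listed, 73 (92.4%) had ratios under 0 at the higher dose, beside 47.1% of all genes. At least 1.3-fold lower were 23 (29.1%) and 0 were that much higher, beside 5.45% and 4.63% of all genes. Among genes at least 2 times above threshold, 10.0% were that much lower. ATP5IF1, the inhibitor of the ATP synthase, was at −0.69, NDUFA2 at −0.65 and NDUFA6 at −0.60, both of complex I. In contrast, of the cytosolic ribosomal protein genes 29 of 74 (39.2%) had ratios under 0 at this dose, and the median was 0.033. At least 1.3-fold lower were 2 (2.70%), RPS26 at −0.57 and RPL26L1 at −0.42. Of the cytosolic genes 1 (1.35%) was at least 1.3-fold higher, RPL36AL at 0.51, which stood at 0.71 at 5 µM. Both shares were under those of all genes. The medians of the mitochondrial ribosomal protein genes lay between those of these lists.

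**Figure D4:**
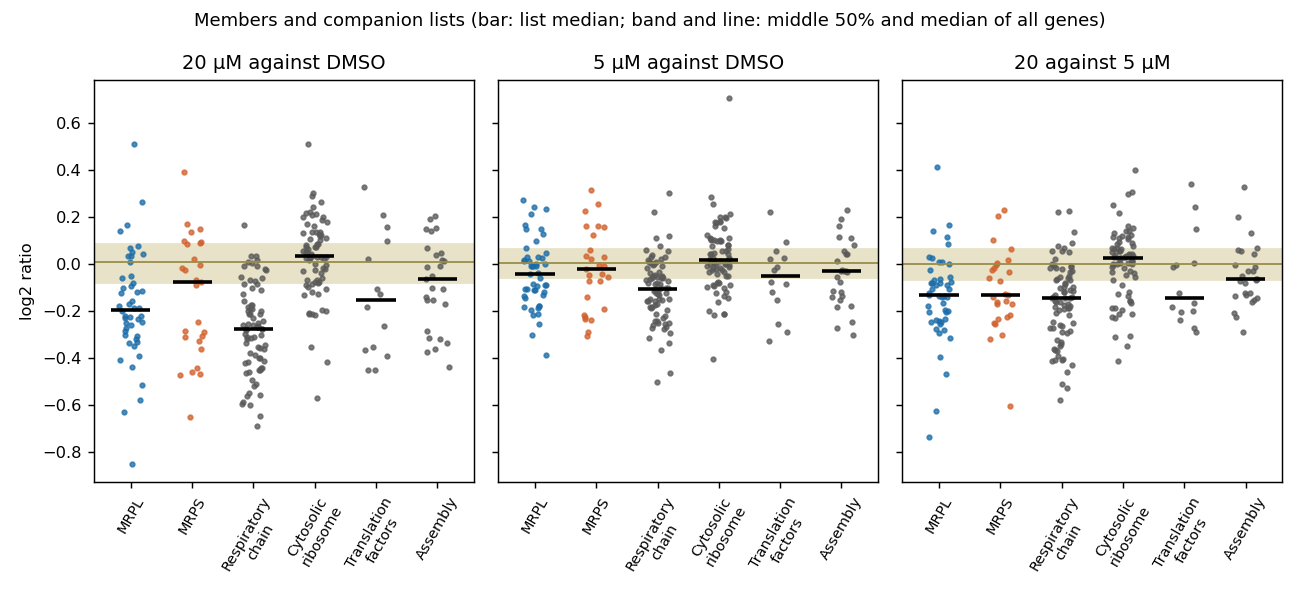
Log2 ratios of the members and of the companion lists, 1 point per gene with the median of each list as a bar, in 3 panels for the comparisons made; the band and line are the middle 50% and the median of all genes. The medians at 20 µM were −0.28 for the respiratory chain, −0.19 for the large subunit, −0.077 for the small subunit and 0.033 for cytosolic ribosomal proteins.

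Factors of mitochondrial translation had a median of −0.15 at 20 µM over 14 genes with a probe. Beside 5.45% of all genes, 3 of the 14 (21.4%) were at least 1.3-fold lower. These were TSFM, the exchange factor of the elongation factor TUFM, at −0.45, the initiation factor MTIF3 at −0.45 and the release factor family member MTRF1 at −0.39. TUFM itself had signals of 1292, 967 and 889 and a ratio of −0.37. LRPPRC, which binds mitochondrial messenger RNA, stood at 0.33. Of 27 assembly and ribosomal RNA modification genes, 1 (3.70%) was at least 1.3-fold lower, a share under the 5.45% of all genes. It was the methyltransferase TRMT61B at −0.44, and the list's median was −0.062. C1QBP stood at −0.38 and the methyltransferase MRM2 at −0.36. Mitochondrial aminoacyl-tRNA synthetases had a median of −0.0063 over 18 genes, with FARS2 at −0.38, IARS2 at −0.34 and CARS2 at −0.33.

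Among 9 genes for mitochondrial transcription and DNA, TFAM, which packages mitochondrial DNA and starts its transcription, had signals of 1131, 783 and 721 and ratios of −0.21 at 5 µM and −0.49 at 20 µM. It was the only one of the 9 (11.1%) at least 1.3-fold lower at 20 µM, beside 5.45% of all genes. TFB2M stood at 0.25 and MTERF1 at −0.21. Among 9 regulators of nuclear genes for mitochondrial proteins, the transcription factor YY1 had signals of 1391, 819 and 957 and ratios of −0.43 at 5 µM and −0.38 at 20 µM. The ETS factor GABPA was at 0.069, its partner GABPB1 at 0.063, NRF1 at −0.067, ESRRA at 0.16 and MYC at 0.18 at 20 µM. Of these, 0 were at least 1.3-fold lower at 20 µM and 0 higher, beside 5.45% and 4.63% of all genes. YY1 fell just short of that fold.

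The letters searched in the promoters were found in a minority of the members. RefSeq windows of 300 bases, from 250 before the start site, were held for 67 of the 75 members, 83 windows in all, because 11 members had several. Both strands were searched, and no search allowed a mismatch. CCGGAAGT was in 13 of the 83 windows (15.7%), beside 4.14% of 35116 windows of all genes. AAGATGGCG was in 11 (13.3%), beside 1.75%, and CGCATGCG in 3 (3.61%), beside 2.02%. Matches of different kinds did not overlap. In MRPL16, MRPS34 and MRPL51 the ETS letters began 7, 20 and 120 bases before the start site. In MRPL17 the NRF1 letters began 80 and 42 bases before it. In MRPL42 and MRPS30 the YY1 letters began at base 9 and base 14 of the transcript.

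The 11 members with the ETS letters had a median ratio of −0.23 at 20 µM, from −0.85 (MRPL16) to 0.089 (MRPS22), with 9 below 0. This was near the values of all 75 members, with a median of −0.19 and 55 (73.3%) below 0. The 11 members with the YY1 letters had a median of 0.032, from −0.47 (MRPS18B) to 0.51 (MRPL42), with 5 below 0. That median is the ratio of MRPL22, whose signal was near the threshold. The 3 members with the NRF1 letters, MRPL17, MRPL22 and MRPS18C, stood at 0.16, 0.032 and −0.088. MRPL22 and MRPL52 held letters of 2 kinds. A match describes the letters in the window and was not measured as binding, and whether the matches bear on the ratios was not tested.

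The members' median at 20 µM was below 0 under all 9 alternatives of processing, from −0.30 with median scaling to −0.16 with the local background column. With that column 42 of the 75 were below 0, and the median of the small subunit was −0.00030. The members' median was −0.24 in the authors' value table, with 57 of 75 below 0 and 20 at least 1.3-fold lower, where 47.4% and 14.3% of all genes were. That table gave −0.11 at 5 µM and −0.088 at 20 against 5 µM. With median scaling, 26 members were at least 1.3-fold lower at 20 µM, where 8.57% of all genes were. The difference between the members' median and that of genes at least 2 times above threshold was −0.20 with quantile normalization and −0.22 with median scaling, so the members' place relative to bright genes moved less than the count.

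**Figure D5:**
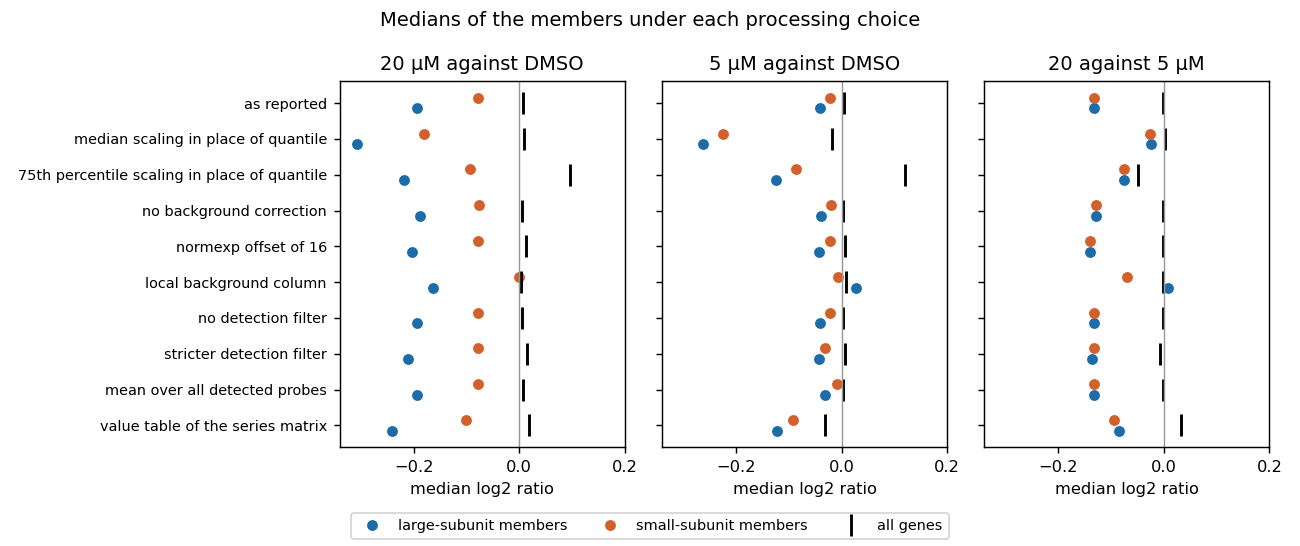
Median log2 ratios of the large-subunit and small-subunit members and of all genes under each processing choice, 1 row per choice, in 3 panels, 1 for each dose against DMSO and 1 for 20 against 5 µM. At 20 µM the large subunit's median stayed below that of all genes in each row, while at 5 µM it ran from −0.26 with median scaling to 0.027 with the local background column.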

How the data were processed

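Total RNA of HT29 cells was measured on 1-colour Toray arrays, 1 per group, so the number of arrays limits the precision and no test was made. Per the file headers, the scanner files hold each spot's median intensity on a linear scale. The authors also deposited a value table of intensity per probe; plotted on the scanner signal its columns are straight lines through 0 at signals of 80.0, 77.3 and 77.6 (DMSO, 5 µM, 20 µM), each with a median of 25. The table is therefore linear and uncentred, and differs from the scanner files by an offset near the blank spots and a factor for each array.

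The signals of all spots were corrected by normexp with an offset of 50 (limma 3.58.1, R 4.3.3), taken to log2 and quantile normalized over 24460 gene probes, so ratios of dim genes are understated. The local background column was left aside because its Spearman correlation with the signal across spots was 0.967, 0.962 and 0.966. Probes were named from the array platform's annotation, in which 21707 had 1 symbol, 0 several and 2753 none. Where a gene had several probes, the one with most detections was used, the brightest on a tie, and a gene entered a comparison when detected on both arrays. Tables and plots were made with Python 3.11.15, numpy 2.4.6, pandas 2.3.3 and matplotlib 3.10.9. The calculation was tested on simulated data in which some probes changed 2-fold, so it was not tested on differences as small as 1.3-fold.

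The text names the 8 highest and 8 lowest members at 20 µM against DMSO, the 4 highest and lowest of the other comparisons, the stalk proteins, the MRPS18 paralogs, members whose probes disagree in sign or by over 3 SD, and up to 3 genes per companion list farthest from 0 at 20 µM; other names were chosen after their values were seen. The members and lists were chosen with earlier results of these data known. Alternatives were other scalings, backgrounds, filters, probe summaries and the value table. Shared growth or hybridisation of the cultures is not stated in the labels.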

Additional observations from a re-analysis of the deposited data

How the results depend on the processing

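The members' median at 20 µM against DMSO kept its direction under all 9 alternatives of processing, and was −0.30 with median scaling. With median scaling, 26 members were at least 1.3-fold lower and 1 higher at 20 µM, beside 8.57% and 3.26% of all genes. At 5 µM that scaling gave medians of −0.25 for all members, −0.26 for the large and −0.22 for the small subunit. The difference of all members from the median of all genes was −0.23, and 17 members were lower, beside 6.16% of all genes. For 20 against 5 µM median scaling gave a median of −0.025 for all members, and 3 lower members, beside 1.75% of all genes. With 75th percentile scaling, 1 member was higher at 20 µM, beside 4.89% of all genes, and 2 were lower at 5 µM, beside 1.56%. The difference from all genes at 5 µM was −0.23, and this scaling put the median of all genes at 0.12 there. Without background correction, 0 members were at least 1.3-fold lower at 5 µM, beside 0.728% of all genes. The value table gave 20 lower members at 20 µM, beside 14.3% of all genes, and 4 at 5 µM, or 5.33% beside 9.15%.

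With the local background column, 26 members were lower and 21 higher at 20 µM, 22 lower and 20 higher at 5 µM, and 19 lower and 18 higher for 20 against 5 µM. The shares of all genes lower and higher were 8.36% and 8.55%, 6.94% and 7.55%, and 7.98% and 7.75% in the same order. The medians at 5 µM were 0.016 for all members, 0.0080 above the median of all genes, and 0.027 for the large subunit. For 20 against 5 µM they were −0.014 for all members, 0.0079 for the large subunit and −0.013 relative to all genes. At 20 µM against DMSO, the ratios of MRPL13 (0.76), MRPL23 (1.77), MRPS18B (1.94) and MRPS30 (−0.29) changed sign, as did those of MRPL13 (0.10) and MRPL23 (0.0056) for 20 against 5 µM. The cause of these differences was not tested. No paired analysis was possible because each group had 1 array, and for the same reason no array could be left out. Leaving out MRPS36 was not run, as it had no named probe. Genes near the detection threshold, such as MRPL22, give no usable ratio.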

Other observations

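Mitochondrial chaperones and proteases, which fold and clear imported proteins such as those of the ribosome, stood on the other side of DMSO in part. LONP1, the main protease of the matrix, had spot signals of 390, 382 and 544 (DMSO, 5 µM, 20 µM) and a log2 ratio of 0.68 at 20 µM. HSPA9, the matrix chaperone that draws in imported proteins, had signals of 1597, 1410 and 2131 and a ratio of 0.62. DNAJA3, its co-chaperone, stood at 0.44 at 20 µM and 0.45 at 5 µM. These 3 of the 13 genes listed were at least 1.3-fold higher at 20 µM, beside 4.63% of all genes, and the list's median was 0.044. HSPD1, the partner of HSPE1 in the matrix chaperonin, stood at 0.15.

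Single genes of the import channels had ratios at both ends. TIMM17A, part of the inner membrane channel, had signals of 729, 743 and 1066 and stood at 0.73 at 20 µM and 0.36 at 5 µM. TIMM13, a carrier of the space between the membranes, stood at −0.45, and TOMM5 of the outer membrane at −0.39. Of 25 such genes, 2 (8%) were at least 1.3-fold lower and 1 (4%) higher at 20 µM, beside 5.45% and 4.63% of all genes. These shares were near the background, and the median of the 25 genes was −0.081.

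Probes for 3 pseudogenes of the family were also read. MRPS31P2 had signals of 688, 432 and 441 and ratios of −0.38 at 5 µM and −0.50 at 20 µM, beside −0.29 and −0.46 for MRPS31. Whether its probe also reads MRPS31 RNA was not tested. MRPS21P2 stood at −0.042 and MRPL37P1 at 0.0062 at 20 µM.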
